A study of Saccharomyces cerevisiae with 6 samples.

Results

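Yeast needs biotin as the prosthetic group of its carboxylases, and 6 of the 6445 genes in the count tables make up the set described here, which was chosen by gene name: BIO2, BIO3, BIO4, BIO5, VHT1 and BPL1. BIO2 drew attention to the pathway because it was lower in the engineered strain in this same comparison, so its own difference is given as a description without a test, and the question is what the other genes of the pathway did. mRNA of budding yeast (Saccharomyces cerevisiae) was sequenced in 3 libraries of a strain that makes β-carotene, genotype label CrtI/E/YB after introduced carotenoid genes, and in 3 of its parent, the haploid auxotrophic laboratory strain CEN.PK2-1C, genotype label WT. Both strains grew in YPD, a rich glucose medium made with yeast extract, for 18 h at 30 °C. The labels name 1 producer strain, so the carotenoid genes and any other difference from the parent cannot be told apart. GAL80, which the genotype label does not name, was nearly absent from the producer, with 0 to 2 counts in each library against at least 4891 in each parental one. Library totals lay between 48.4 and 58.3 M estimated counts (M, 1e6). Counting error corresponds to a coefficient of variation of 0.74% to 3.62% for the 6 genes, and the observed one over 3 libraries was 1.84% to 18.2%. They were close for BIO2 in the parent (1.42% and 1.84%) and BIO4 in the producer (3.19% and 3.58%). Separate cultures are not stated for the replicates, and the p-values therefore cover a spread between libraries that may be technical. The log2 fold change followed the GC content of genes (Spearman 0.641 across 6066 genes, which are not replicates), and values corrected for this trend are therefore given beside each member.

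Biotin is built from KAPA, a small keto acid that many laboratory strains cannot make and must take up or receive as finished biotin. Bio5 is the plasma membrane permease for KAPA and DAPA, Bio3 is the aminotransferase that turns KAPA into DAPA, Bio4 closes the ring to dethiobiotin, and Bio2 is the mitochondrial iron-sulfur enzyme that inserts the sulfur atom in the last step. Vht1 imports biotin itself from the medium with protons, and Bpl1 attaches biotin to the carboxylases. When biotin is scarce, the activator Vhr1 raises VHT1 and BIO5 through a DNA element named VHRE. When iron is scarce, the mRNA-binding protein Tis11, also called Cth2, speeds the decay of mRNAs for proteins that use iron, through AU-rich elements behind the stop codon, and BIO2 mRNA is among those described as its targets.

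The sequences that set these genes apart were read from the RefSeq genome of the strain S288C (assembly R64, the assembly from which sacCer3 is drawn), by coordinates on the strand of each gene and from 5′ to 3′. The VHRE was searched on both strands, in the 500 bases before the start codon, as AATCA, 8 bases of any kind, and TGACT or TGATT. Of the members, VHT1 and BIO5 each held 1 VHRE, and BIO2, BIO3, BIO4 and BPL1 held 0. The 2 elements are shown with 6 bases on each side, with the element in capitals.
VHT1 element: attatgAATCACTTTAGGATGATTtacaca
BIO5 element: actctgAATCATACATTGCTGACTtggaat
The VHT1 element lies on chrVII:620106-620123, outside annotated coding sequence, and its last base is 248 bases before the start codon. Its letters match the search on both strands and were counted as 1 element. That of BIO5 lies on chrXIV:733569-733586, inside the coding sequence of BIO4, and its last base is 266 bases before the start codon of BIO5. Both genes are on the minus strand. Of 5996 protein-coding genes with a full window, 20 held a VHRE, which is 0.33%. The element was defined in published work on these same genes, so its presence in front of them is background and not a finding. The 300 bases before each of these start codons are shown with the VHRE in capitals, and those before BIO2 are shown beside them because BIO2, chosen for its lower level, held no VHRE.
VHT1, chrVII:619859-620158, minus strand: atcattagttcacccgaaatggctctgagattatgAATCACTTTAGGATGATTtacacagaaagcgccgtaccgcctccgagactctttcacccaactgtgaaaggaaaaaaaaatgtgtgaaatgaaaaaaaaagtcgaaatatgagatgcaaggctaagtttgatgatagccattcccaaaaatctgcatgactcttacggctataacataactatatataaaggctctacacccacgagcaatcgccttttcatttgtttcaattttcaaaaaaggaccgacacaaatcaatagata
BIO5, chrXIV:733304-733603, minus strand: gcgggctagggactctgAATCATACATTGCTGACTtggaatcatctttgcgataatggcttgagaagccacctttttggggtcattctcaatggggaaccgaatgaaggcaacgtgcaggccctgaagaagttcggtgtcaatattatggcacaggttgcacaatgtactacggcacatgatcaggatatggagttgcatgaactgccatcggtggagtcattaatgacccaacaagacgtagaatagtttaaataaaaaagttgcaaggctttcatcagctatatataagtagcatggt
BIO2, chrVII:1064941-1065240, minus strand: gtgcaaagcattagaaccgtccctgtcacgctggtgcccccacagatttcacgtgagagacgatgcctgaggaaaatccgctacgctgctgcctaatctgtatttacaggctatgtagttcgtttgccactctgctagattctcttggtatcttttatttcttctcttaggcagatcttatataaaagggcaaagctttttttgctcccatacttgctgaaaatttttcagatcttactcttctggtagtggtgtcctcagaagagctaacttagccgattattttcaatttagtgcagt
The core of the site of Aft1, the activator of the response to low iron, was searched as GCACCC on both strands of the same 500 bases. None of the 6 members held it, against 7.59% of all genes searched, and TIS11 held 2 copies.

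Behind the stop codon, TATTTAT was searched on the coding strand in 300 bases, a window that the other motifs were not searched in. BIO2 held 2 copies, BIO3 held 2 and BIO5 held 1, and BIO4, VHT1 and BPL1 held 0. Of 5993 genes with a full window, 17.19% held at least 1 copy. The copies behind BIO2 and BIO3 are shown with 6 bases on each side and the motif in capitals, because BIO2 is a described target of Tis11 and BIO3 holds as many copies.
BIO2, chrVII:1063756-1063762, minus strand, first base 51 after the stop codon: ctccctTATTTATtaagaa
BIO2, chrVII:1063719-1063725, minus strand, first base 88 after the stop codon: tttaccTATTTATtctgcc
BIO3, chrXIV:735804-735810, plus strand, first base 71 after the stop codon: cgctatTATTTATattgat
BIO3, chrXIV:735843-735849, plus strand, first base 110 after the stop codon: tatggtTATTTATtctagc
A match of letters is a description of the reference sequence and does not show a site in use.

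**Figure D1:**
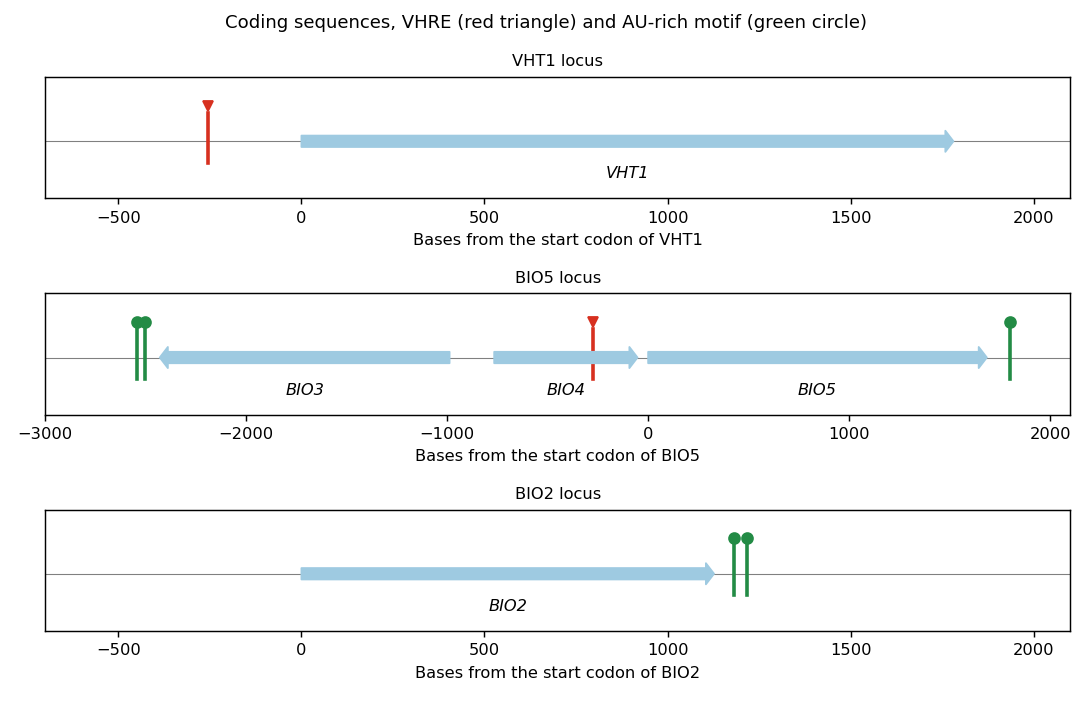
Positions of coding sequences (blue arrows, in the direction of transcription), VHRE elements (red triangles) and TATTTAT motifs (green circles) at 3 loci, with the x axis in bases from the start codon named under each panel. The VHRE of VHT1 lies in front of the gene, that of BIO5 lies inside BIO4, and BIO2 has 2 TATTTAT motifs behind its stop codon.

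BIO2 (YGR286C, chrVII:1063813-1064940, minus strand, a single coding exon) was the member with the lower level in the producer. It stood at 67.9, 57.2 and 63.2 CPM (counts per 1e6 counts of the library, scaled by TMM) in producer replicates 1, 2 and 3 and at 96.6, 95.9 and 93.3 CPM in the parental ones. The groups did not overlap, and the parental libraries were close to each other. The means were 62.8 ± 5.36 and 95.2 ± 1.75 CPM (SD, n = 3 each), a log2 fold change of -0.60 ± 0.08 (SE), or a level 1.52-fold higher in the parent, with a 95% interval from -0.78 to -0.42 on the log2 scale. Of all 6125 genes tested, 1.13% had a more negative change. BIO2 was among the 21 genes called lower in edgeR, 0.343% of all genes tested, and this is what drew attention to it. BIO2 has a GC content of 42.4%, higher than that of 76.8% of genes, and the trend over all genes ran toward higher levels of GC-rich genes in the producer. With the GC-content correction BIO2 was at -0.72 ± 0.08 (SE) on the log2 scale. The difference of BIO2 was thus larger with the correction, and the part of GC content in it was not tested.

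**Figure D2:**
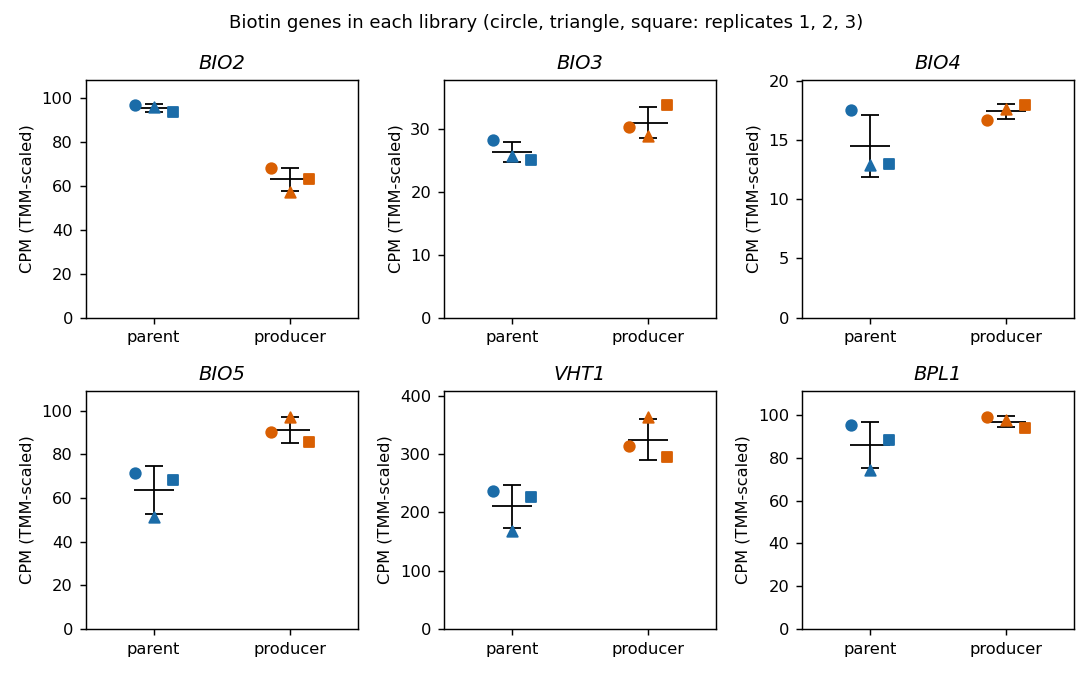
Level of the 6 biotin genes in each library in CPM (y axis, from 0), with parent libraries in blue, producer libraries in orange and the mean ± SD of 3 libraries in black. BIO2 is lower in all 3 producer libraries, BIO3, BIO5 and VHT1 are higher in all 3, and the groups overlap for BIO4 and BPL1.

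The synthesis genes in front of BIO2 in the pathway had log2 fold changes above 0, and neither passed the test. BIO3 (YNR058W, chrXIV:734291-735733, plus strand) stood at 30.2, 28.9 and 33.7 CPM in the producer and 28.1, 25.7 and 25.0 CPM in the parent. The groups did not overlap, but they were separated by less than 1 CPM, and the log2 fold change was 0.23 ± 0.10 (SE) with an edgeR adjusted p of 0.162. BIO4 (YNR057C, chrXIV:733356-734069, minus strand) stood at 16.7, 17.6 and 17.9 CPM in the producer and 17.5, 12.9 and 13.0 CPM in the parent. Parental replicate 1 lay within the range of the producer, and the log2 fold change was 0.27 ± 0.14 (SE) with an edgeR adjusted p of 0.236. BIO3 and BIO4 are divergent neighbours with high GC contents of 43.2% and 45.9%. With the GC-content correction they were at 0.09 ± 0.09 and 0.04 ± 0.11 (SE) on the log2 scale. The 95% intervals of the log2 fold changes were 0.02 to 0.45 for BIO3 and -0.04 to 0.58 for BIO4. With the GC-content correction they were -0.11 to 0.30 for BIO3 and -0.20 to 0.28 for BIO4, so small decreases are not outside them. BIO1 and BIO6, which make the earlier steps in some strains, have no entry under these names in the count tables and could not be analysed. Whether the strains used here carry them is not shown by these counts. BIO6 is a relative of BIO3, so reads of such a gene in these strains could be counted under BIO3, which was not tested.

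Both uptake genes had higher means in the producer, although neither passed the test. VHT1 (YGR065C, chrVII:618077-619858, minus strand), the biotin symporter, stood at 314, 364 and 295 CPM in the producer and 237, 167 and 226 CPM in the parent. All 3 producer libraries lay above all 3 parental ones, and the lowest library was parental replicate 2. The means were 325 ± 35.5 and 210 ± 37.4 CPM (SD, n = 3 each). The log2 fold change was 0.63 ± 0.13 (SE), or 1.55-fold, with an edgeR adjusted p of 0.0609. BIO5 (YNR056C, chrXIV:731618-733303, minus strand), the permease for the precursors, stood at 90.2, 97.3 and 85.7 CPM in the producer and 71.5, 51.2 and 68.2 CPM in the parent. Its groups did not overlap either, and its lowest library was the same. The log2 fold change was 0.52 ± 0.12 (SE), or 1.43-fold, with an edgeR adjusted p of 0.0698. With the GC-content correction VHT1 was at 0.66 ± 0.14 and BIO5 at 0.50 ± 0.11 (SE), and edgeR gave adjusted p values of 0.0691 and 0.0695. GC contents of VHT1 and BIO5, 39.0% and 40.3%, are close to the median of 39.7% over all genes. DESeq2 called both, with adjusted p values of 0.000579 for VHT1 and 0.00374 for BIO5, in a fit that called 14.6% of genes. In edgeR VHT1 and BIO5 also passed without parental replicate 1, where VHT1 was at 0.72 and BIO5 at 0.61, and without parental replicate 2, where they were at 0.49 and 0.38. Those fits called 17.5% and 1.42% of all genes. Parental replicates 2 and 3 are the shallower libraries, and in a fit with the log2 of library totals as a term VHT1 was at 0.45 and BIO5 at 0.35, both with an edgeR adjusted p of 0.893. The part of depth in these differences was not tested further.

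BPL1 (YDL141W, chrIV:203039-205111, plus strand), the ligase that joins biotin to its proteins, stood at 99.3, 97.7 and 93.9 CPM in the producer and 95.3, 74.2 and 88.5 CPM in the parent. The groups overlapped, and the log2 fold change was 0.17 ± 0.09 (SE) with an edgeR adjusted p of 0.257. Its 95% interval ran from -0.04 to 0.38 and does not include a change of 1.5-fold in either direction. With the GC-content correction BPL1 was at 0.15 ± 0.08 (SE).

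Counted over the set, 1 member was called lower, 0 higher and 5 did not pass in edgeR, against 1.14% of all genes called in either direction. The fit with the GC-content correction (1.27% of genes called) and limma-voom (1.04%) also called 1 member, BIO2. The call is that of BIO2 and was known when the set was chosen, so nothing is read from this count. The median log2 fold change of the 6 members was 0.25, against -0.01 over all genes tested, and 0.12 after the GC-content correction, against 0.00. The 5 members other than BIO2 had positive values in the edgeR fit, as did 2971 of all 6125 genes tested. They were also positive in each of the 17 alternative settings, which draw on the same 6 libraries. The lowest of these values were 0.0019 for BIO4, 0.03 for BPL1 and 0.09 for BIO3, so not all of them differ from 0. The 3 producer libraries lay above all 3 parental ones for BIO3, BIO5 and VHT1 and below them for BIO2. Such separation is common in these libraries, at 16.6% of all genes upward and 17.2% downward.

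**Figure D3:**
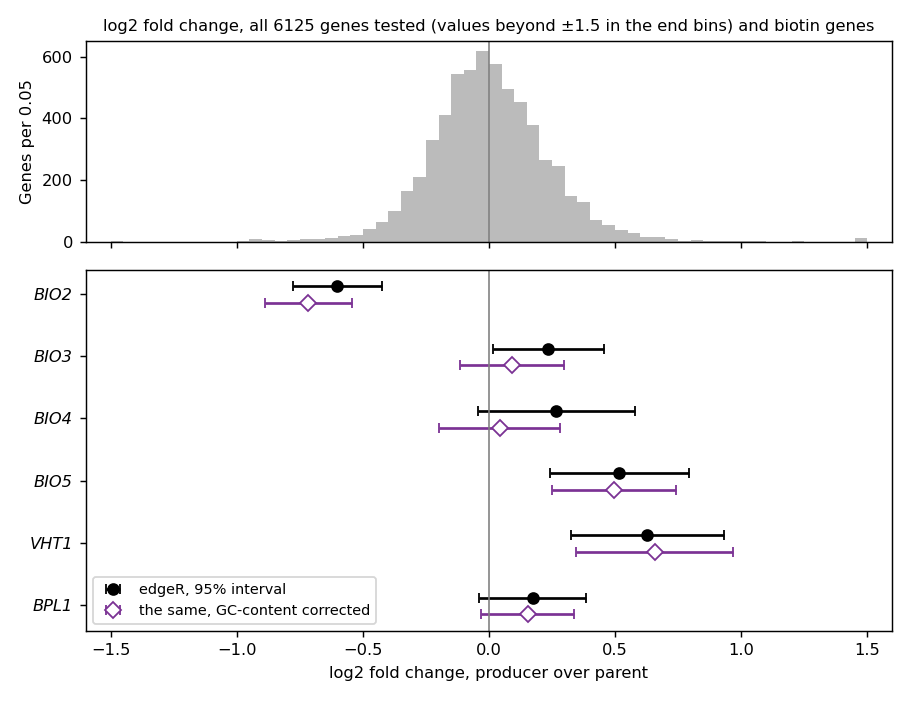
Upper panel, the number of genes in each 0.05-wide bin of log2 fold change (producer over parent) for all 6125 genes tested. Lower panel, the 6 biotin genes on the same x axis with 95% intervals, from edgeR (black circles) and after the GC-content correction (open diamonds). The interval of BIO2 lies below 0 and those of BIO5 and VHT1 lie above it, as does that of BIO3 without the correction. The intervals are not adjusted for the number of genes, and BIO3, BIO5 and VHT1 did not pass the test. BIO2 was chosen from this comparison, so the place of its interval is a description.

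Ratios taken within a library do not depend on scaling, and they show the balance between genes of the pathway. For each CPM of BIO2 there were 4.63, 6.36 and 4.68 CPM of VHT1 in producer libraries and 2.45, 1.75 and 2.42 in parental ones. The mean ratio was 5.22 ± 0.99 in the producer and 2.21 ± 0.40 in the parent (SD, n = 3 each). The ratio of BIO5 to BIO2 was 1.33, 1.70 and 1.36 in the producer, where BIO5 was the higher of the pair in every library. In the parent it was 0.74, 0.53 and 0.73, where BIO2 was the higher in every library. These ratios contain the difference of BIO2 for which the pathway was chosen and are given as a description. The ratio of VHT1 to BIO5 varied far less. It stood at 3.49, 3.74 and 3.45 in producer libraries and at 3.31, 3.27 and 3.31 in parental ones, without overlap, while the level of BIO5 itself ranged from 51.2 to 97.3 CPM. Parental replicate 2 was the lowest and producer replicate 2 the highest library for both genes. The same libraries were lowest and highest for TIS11 and for PYC1, a pyruvate carboxylase gene, so these extremes are not particular to the pair. BIO3 and BIO4, which are transcribed away from each other, had overlapping ratios, 1.64 to 1.88 in the producer and 1.61 to 1.99 in the parent. BIO5 and BIO4 lie 52 bases apart on the minus strand, and their ratio also overlapped, with 4.78 to 5.53 for the producer and 3.97 to 5.25 for the parent. These ratios are without the GC-content correction, and the GC contents of BIO5 and BIO4 differ, at 40.3% and 45.9%. With the correction the log2 fold change was 0.50 for BIO5 and 0.04 for BIO4, so the overlap of their ratio may not hold on that scale.

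**Figure D4:**
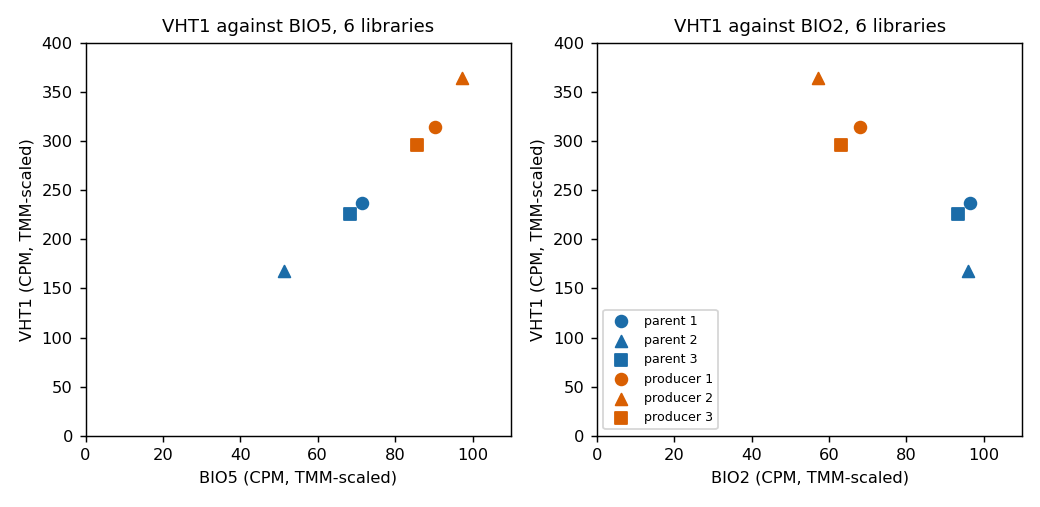
CPM of VHT1 (y axes) against BIO5 (left x axis) and against BIO2 (right x axis) in the 6 libraries, with parent in blue and producer in orange and circles, triangles and squares for replicates 1, 2 and 3. VHT1 and BIO5 lie along a line with parental replicate 2 at the bottom and producer replicate 2 at the top, while the producer libraries lie at lower values of BIO2 and higher values of VHT1.

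Levels of different genes were compared per kilobase of coding length. In the parent VHT1 was the most abundant, at 118 ± 21.0 CPM per kb (SD, n = 3), followed by BIO2 at 84.4 ± 1.55, BPL1 at 41.5 ± 5.21, BIO5 at 37.7 ± 6.46, BIO4 at 20.3 ± 3.69 and BIO3 at 18.2 ± 1.14. The ranges of BPL1 and BIO5 overlapped, as did those of BIO4 and BIO3, although the gene named first was the higher in every parental library. In the producer VHT1 stood at 182 ± 19.9 CPM per kb and BIO2 at 55.7 ± 4.75. BIO5, at 54.0 ± 3.48 CPM per kb, overlapped BIO2 there. BPL1 followed at 46.8 ± 1.34 CPM per kb, then BIO4 at 24.4 ± 0.873 and BIO3 at 21.4 ± 1.73, whose ranges came within 0.1 of each other. The genes of the last step and of precursor uptake, apart in the parent, thus stood at similar levels in the producer. This comparison contains the difference of BIO2 for which the pathway was chosen and is given as a description.

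The regulators of the uptake genes had positive values that did not pass the test. VHR1, the activator that acts through the VHRE, stood at 628, 653 and 609 CPM in the producer and 553, 515 and 489 CPM in the parent. Its groups did not overlap, and its log2 fold change was 0.28 ± 0.09 (SE) with an edgeR adjusted p of 0.0992. VHR2, its paralog, was at 0.16 ± 0.08 (SE) with an edgeR adjusted p of 0.237. Of these 2 regulators, 0 passed in edgeR and 1 had an unadjusted p under 0.05, as did 27.3% of all genes (1673 of 6125). DESeq2, which called 14.6% of all genes, called 1, VHR1, and limma-voom called 0. Of the 20 genes with a VHRE in the 500 bases upstream, 0 passed in edgeR. An unadjusted p under 0.05 was found for 10, of which 6 were higher and 4 lower, against 27.3% of all genes. DESeq2 called 4, against 14.6%, and limma-voom 0. VHT1 and BIO5 had the 2 largest log2 fold changes by size among the 20, followed by LSO1 at 0.36 and TEL1 at -0.33. LSO1 had a low level, with means of 2.63 CPM in the producer and 2.05 CPM in the parent. After the GC-content correction LSO1 was at 0.17 and TEL1 at -0.16. The median of the 20 was 0.02, against -0.01 over all genes, and their range ran from -0.33 to 0.63.

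The proteins that carry biotin did not pass the test. The list held ACC1 and HFA1, the acetyl-CoA carboxylases of cytosol and mitochondria, PYC1 and PYC2, the pyruvate carboxylases, DUR1,2, the urea amidolyase, and ARC1, a tRNA-binding cofactor that is also biotinylated. Of these 6 genes 0 passed in edgeR, and 1 had an unadjusted p under 0.05, against 27.3% of all genes. DESeq2 called 1, against 14.6%, and limma-voom 0, and the median log2 fold change was 0.00. ACC1, which starts fatty acid synthesis, stood at 825, 770 and 604 CPM in the producer and 1018, 871 and 1048 CPM in the parent. The groups did not overlap, and the log2 fold change was -0.42 ± 0.14 (SE), with 0.107 as the edgeR adjusted p. ACC1 was the gene that DESeq2 called. HFA1 was at -0.13 ± 0.06 (SE), PYC1 at 0.19 ± 0.17, PYC2 at 0.13 ± 0.21, DUR1,2 at 0.02 ± 0.12 and ARC1 at -0.02 ± 0.08. PYC1 spread widely within strains, from 862 to 1405 CPM over the 6 libraries, and a difference as small as its estimate could not be detected.

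Bio2 shares its chemistry with lipoate synthase and depends on the mitochondrial iron-sulfur machinery, and genes of both were set beside it. LIP5, lipoate synthase, which inserts sulfur in the same manner, stood at 148, 155 and 155 CPM in the producer and 156, 157 and 153 CPM in the parent. Its log2 fold change was -0.02 ± 0.06 (SE), with the groups overlapping. Of the other lipoate genes, LIP2, a lipoyl transferase, was at -0.11 ± 0.08, AIM22 (LIP3), a lipoate ligase, at -0.34 ± 0.09 and GCV3, the lipoylated H protein of glycine cleavage, at 0.39 ± 0.23. Of these 4 genes 0 passed in edgeR, and 1 had an unadjusted p under 0.05, against 27.3% of all genes. DESeq2 called 1, AIM22, against 14.6%, and limma-voom 0. After the GC-content correction AIM22 was at -0.15. The late assembly factors ISA1, ISA2 and IBA57, which supply clusters to Bio2 and Lip5, were at 0.01 ± 0.06, -0.06 ± 0.08 and 0.02 ± 0.07. Of the factors that act beside them, NFU1 was at 0.02 ± 0.06, the glutaredoxin gene GRX5 at -0.11 ± 0.06, BOL1 at 0.35 ± 0.12 and BOL3 at 0.43 ± 0.15. After the GC-content correction BOL1 was at 0.08 and BOL3 at 0.14, while ISA1 was at -0.215 and GRX5 at -0.18. ISA2, IBA57 and NFU1 were then at 0.06, 0.10 and 0.13, and 0 of the 7 passed in that fit. Of these 7 genes 0 passed in edgeR, and 2 had an unadjusted p under 0.05, against 27.3% of all genes. DESeq2 called 2, BOL1 and BOL3, against 14.6%, and limma-voom 0.

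The wider list held 12 iron-sulfur enzymes, from aconitase to tRNA-modifying enzymes. The median log2 fold change of the 12 was -0.04, against -0.01 over all genes, with a range from -0.37 to 0.11. Of them 0 passed in edgeR, and 2 had an unadjusted p under 0.05, against 27.3% of all genes. DESeq2, at 14.6% of all genes, and limma-voom each called 0. ACO1, mitochondrial aconitase, had the most negative value at -0.37 ± 0.15 (SE), with an edgeR adjusted p of 0.165. GLT1, glutamate synthase, was at -0.15 ± 0.11, MET5, a subunit of sulfite reductase, at -0.14 ± 0.06 and LEU1, isopropylmalate isomerase, at -0.13 ± 0.12. The interval of ACO1 ran from -0.72 to -0.02 on the log2 scale, which includes a decrease as large as that of BIO2, at -0.60. The next lowest limit in the list was that of GLT1, at -0.40, so the other intervals leave room for smaller changes. No test set BIO2 against the list.

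Of the 4 iron regulators, TIS11 rose and AFT1, AFT2 and CTH1 did not pass. TIS11 stood at 153, 168 and 167 CPM in the producer and 85.9, 65.1 and 91.4 CPM in the parent. The groups were far apart, with a log2 fold change of 1.01 ± 0.12 (SE, edgeR adjusted p 0.00534), in a fit that called 0.800% of all genes higher. It was at 0.96 after the GC-content correction, and at 0.93 and no longer past the threshold with the library total as a term. AFT1, the activator of iron uptake genes, was at 0.22 ± 0.06 (edgeR adjusted p 0.0848) and was called by DESeq2, which called 14.6% of all genes. Its paralog AFT2 was at -0.17 ± 0.08, and CTH1, a relative of TIS11, at 0.07 ± 0.08. Between the strains TIS11 was thus higher and BIO2 lower in the producer. Within the parent TIS11 ran from 65.1 to 91.4 CPM while BIO2 ran from 93.3 to 96.6 CPM. BIO3 and BIO5, which also hold TATTTAT, were at 0.23 and 0.52 on the log2 scale. The part of TIS11 in the level of BIO2 was not tested.

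**Figure D5:**
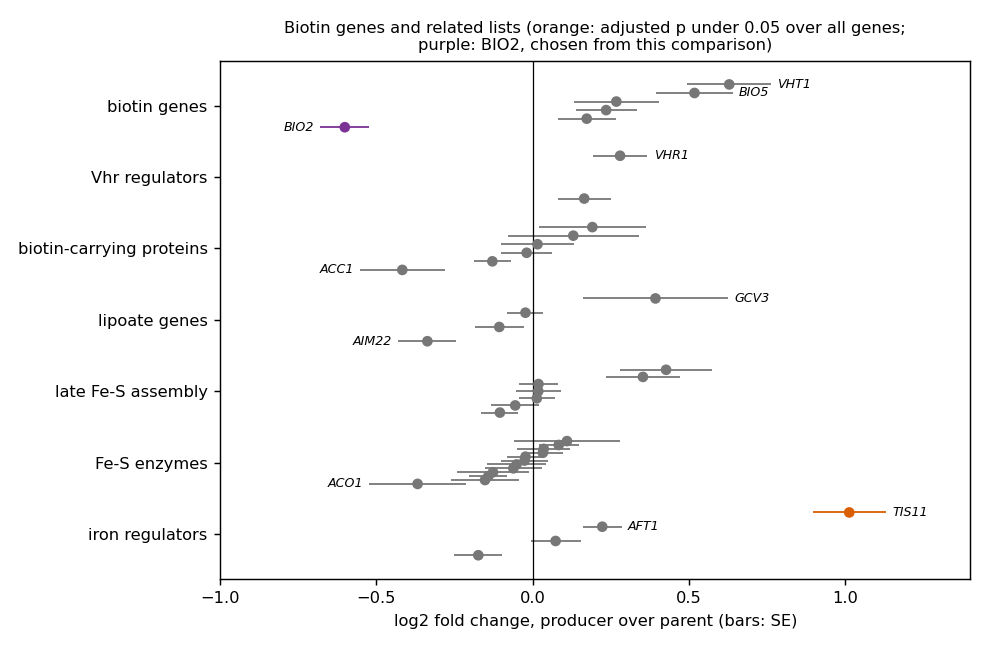
log2 fold change (x axis, producer over parent) with its SE for the biotin genes and 6 related lists, 1 point for each gene. Of the genes outside the biotin set, TIS11 passed the test over all genes (orange), and BIO2 is drawn in purple because it was chosen from this comparison.

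The chromosomal neighbours of the members were looked at for regional differences. BIO2 lies 26000 bases from the end of chromosome VII, and the cluster of BIO3, BIO4 and BIO5 lies 48600 to 51030 bases from the end of chromosome XIV. Beside BIO2, ZUO1, a ribosome-associated chaperone, was at 0.04 ± 0.06 (SE), ERV29, a cargo receptor, at 0.09 ± 0.08, IMA1, an isomaltase, at 0.16 ± 0.08 and MAL13, a MAL activator, at 0.17 ± 0.08. BIO2 had a lower level between neighbours with values near or above 0 in this fit. After the GC-content correction ZUO1 was at -0.15, ERV29 at 0.22, IMA1 at 0.05 and MAL13 at 0.11, with BIO2 at -0.72. Beside the cluster, HOL1, a transporter, was at 0.03 ± 0.07, ESF2, of ribosome assembly, at 0.02 ± 0.10, MNT4, a putative mannosyltransferase, at -0.13 ± 0.07 and FRE4, a ferric reductase, at 0.00 ± 0.22. Beside VHT1, SPT4, of transcription elongation, was at 0.37 ± 0.12, with 0.11 after the GC-content correction, COX18, of cytochrome oxidase assembly, at 0.03 ± 0.07, GID10 at 0.17 ± 0.15 and YGR067C at -0.05 ± 0.11. Beside BPL1, CRD1, cardiolipin synthase, was at 0.22 ± 0.07, CCT4, a chaperonin subunit, at 0.11 ± 0.09, RPO21, the largest subunit of RNA polymerase II, at -0.08 ± 0.09 and SCM3, a histone chaperone, at 0.12 ± 0.14. Of these 16 neighbours 0 passed in edgeR, and 2 had an unadjusted p under 0.05, against 27.3% of all genes. DESeq2 called 1, SPT4, against 14.6%, and limma-voom 0.

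The genes with the pattern most like that of BIO2 over the 6 libraries came from outside the pathway. Likeness was the root mean square difference of log2 CPM, each gene centred on its own mean, over 5680 genes with a mean of at least 5 CPM. The nearest were HPA2, an acetyltransferase gene, at 0.10 on the log2 scale, SPG4, a gene of stationary phase, at 0.11, PHM6, a gene of the phosphate response, at 0.11, YPT53, of the vacuolar Rab GTPases, at 0.12 and POL4, a DNA repair polymerase, at 0.12. Among these 5680 genes BPL1 ranked 4548, BIO3 4732, BIO4 5147, BIO5 5569 and VHT1 5628 in likeness to BIO2. The uptake genes were thus among the genes least like BIO2 in these libraries. These ranks rest on 6 libraries that share the GC-content trend, and they contain the strain difference for which BIO2 was noticed.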

How the data were processed

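The authors deposited estimated counts per gene, in whole numbers and with a table per library. They derive from StringTie files written after removal of duplicate reads, per the file headers, which may lower abundant transcripts. FastQC, HISAT2, SAMtools, Picard, DESeq2 and the build sacCer3 are named by the submitters' processing notes. Tool versions, and whether counting used strand, are not stated in those notes. The members and lists were chosen with earlier results of these data known. The genes named are the 6 biotin genes, lists by known function (in full up to 7 genes, otherwise the 4 with the largest change), the 2 nearest protein-coding neighbours on each side, and the 5 genes most like BIO2.

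Tables were joined by gene name, and 6213 of 6445 names matched RefSeq. Strains were compared with edgeR 4.0.16 (R 4.3.3) by its two-sided quasi-likelihood F test, after filterByExpr and TMM, with robust dispersions and no other term than strain. P-values were adjusted by Benjamini-Hochberg over 6125 genes, and the threshold was 0.05. The script was checked on simulated counts. The SE is the size of the log2 fold change divided by the square root of F. The GC-content correction took a loess trend (span 0.5, genes of at least 5 CPM) of log2 CPM out of each library, for 6066 genes. Alternatives are in the closing section, with DESeq2 1.42.0 and limma 3.58.1 among them.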

Additional observations from a re-analysis of the deposited data

How the results depend on the processing

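BIO2, a description with no test, was at -0.60 with the log2 of library totals as a covariate and at -0.66 to -0.54 with each library left out. The call by which it was chosen was absent with that covariate, and when producer replicate 2, producer replicate 3 or parent replicate 3 was left out, at -0.54, -0.61 and -0.61, and nothing is read from it. VHT1 passed in 3 alternatives, at 0.63 in DESeq2 and within 0.49 to 0.72 with a library left out. BIO5 passed in the same 3, at 0.52 in DESeq2 and within 0.38 to 0.61. BIO4 passed without parent replicate 1 at 0.43, in a range of 0.19 to 0.43, and BIO3 and BPL1 passed in none. Members called were 3 in DESeq2, 0 with the covariate, and 0 to 4 with a library left out, of which 4 without parent replicate 1, where 17.5% of all genes were called, 3 without parent replicate 2, where 1.42% were called, and 0 when producer replicate 2 or 3 or parent replicate 3 was left out. Over all genes, 70 calls became 842 in DESeq2, 10 with the covariate, 24 with the GC-content correction and the replicate block together, and 15 to 1077 with a library left out (1077 when parent replicate 1 was left out, 87 for parent replicate 2, 16 for parent replicate 3, and 22, 15 and 21 for the producer replicates in order). The cause was not tested.

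Calls in the lists became, in DESeq2, 1 for the biotin-carrying proteins, 1 for the Vhr regulators, 1 for the lipoate genes, 2 for late iron-sulfur assembly and 2 for the iron regulators. That fit called 14.6% of all genes. With the covariate the iron regulators had 0, since TIS11 lost its call at 0.93. Leaving out a library gave 0 to 1 calls for the Vhr regulators, lipoate genes and late assembly and 1 to 2 for the iron regulators. The higher count in each came without parent replicate 1, where 17.5% of all genes were called. The other 50 named genes had 79 sign changes among 850 values, all in genes past the threshold in neither fit. TATTTAT was found behind 11.12% of genes within 150 bases, with the same members. The loess span of 0.3 changed no member's call. Same-numbered libraries had deviations correlated at 0.40, -0.38 and -0.61, and not every library correlated best with its own number. With 3 libraries in each group that share the GC-content trend, these correlations cannot decide whether the numbers mark shared batches. The replicate block gave 104 calls, with BIO2 at -0.60, VHT1 at 0.64 and BIO5 at 0.53, and changed no member's call.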
